A study of Arabidopsis thaliana with 16 samples.

Results

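The 8 genes described here encode enzymes and wall-loosening proteins that modify the plant cell wall, and each has its highest or lowest signal in 1 layer of iron-deficient Arabidopsis thaliana roots. They are the glucanases GH9C3 and GH9B6, the expansin EXPA4, the xyloglucan endotransglucosylase/hydrolase XTH21, the pectin methylesterase PMEPCRF, and TBL30, TBL36 and TBL41 of the TRICHOME BIREFRINGENCE-LIKE family. They were picked by name, with earlier results of these arrays known, by where their signals were high or low. GH9C3 was taken for epidermis, GH9B6 and EXPA4 for columella and PMEPCRF for cortex. For TBL41 (cortex and columella) both the highest and the lowest population count as used, and for XTH21 the lowest, epidermis, together with the slope over the layers. The populations that TBL30 and TBL36 were picked for were not recorded. By rule, their highest populations, endodermis and stele, count as used. For TBL30 the lowest, epidermis, does too, since every array there lay below all others. Whether further populations played a part for TBL30 and TBL36 is not known. Each has 1 probe set, so the group covers 8 of 13333 genes with a probe set of their own, and 8 of 22810 probe sets. Levels in the populations a gene was chosen on are therefore a description and were not tested.

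The arrays came from RNA of sorted root cells of the Columbia ecotype. Each population was marked by green fluorescent protein from 1 reporter line: WER::GFP for epidermis with lateral root cap (n = 4 arrays), PET111 for columella (n = 3), CORTEX for cortex (n = 3), SCR::GFP for endodermis with quiescent center (n = 3) and WOL::GFP for stele (n = 3). The names below are shortened to the main tissue, so epidermis includes lateral root cap and endodermis includes quiescent center. All seedlings were 6 days old and had then been kept for 24 h on agar lacking iron, with ferrozine, which binds ferrous iron, at 0.3 mM. Iron deficiency is shared by every array, so each value is a level under deficiency and not a response to it. Enzymes removed the walls of all cells before sorting, and the RNA was amplified in a pair of rounds before labelling. Each value is thus also a level after wall removal, and any effect of that step on these genes was not tested.

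A growing wall is a network of cellulose fibrils tied by xyloglucan and xylan and embedded in pectin. Expansins loosen the contacts between these polymers without cutting them, glucanases of family 9 cut the chains of cellulose and related glucans, and XTH enzymes cut xyloglucan and rejoin the ends. Pectin methylesterases take methyl groups off pectin, which changes how stiff it is, and TBL proteins add acetyl groups to wall polysaccharides.

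Signals are the authors' MAS5 values, a linear measure of probe set brightness scaled to the same trimmed mean on every array. Median signals ran from 50.02 to 81.1 over the 16 arrays, and a signal of 38.05 was the 40th percentile of the table. Arrays of 1 population correlated at 0.894 to 0.981 over the probe sets tested, and arrays of different populations at 0.639 to 0.878. Epidermis replicate 4 stood apart: it correlated at 0.894 to 0.938 with epidermis replicates 1 to 3, which correlated at 0.970 to 0.981 with each other. With cortex arrays it correlated at 0.839 to 0.868, where epidermis replicates 1 to 3 gave 0.727 to 0.791. The labels do not say whether replicates were separate cultures, so each p-value reflects only how far these samples spread, which may be technical. Of 39 listed markers of the cell types, 7 had a probe set of their own in the annotation. GSO1, a receptor kinase of the endodermal barrier, was highest in endodermis (5445 ± 864, SD, n = 3), with 1077 ± 182 in cortex and 645 ± 207.5 in stele (SD, n = 3 each). The root cap polygalacturonase AT1G65570 was highest in columella (7529 ± 532, SD, n = 3) and reached 2012 ± 1232 in epidermis with lateral root cap (SD, n = 4). TRY, a regulator of epidermal cell fate, reached 59.95 ± 23.8 in epidermis (SD, n = 4) and 33.1 ± 22.2 in endodermis (SD, n = 3). The genes of the WER, SCR and WOL reporters were not analysed here. The root hair expansin EXPA7 had similar signals in epidermis (335 ± 130, SD, n = 4) and cortex (386 ± 322, SD, n = 3), and the vascular regulator LHW in stele (519 ± 13.8, SD, n = 3) and endodermis (462 ± 90.0, SD, n = 3). The cortex marker AT1G62500 was low in cortex itself (12.9 ± 15.4, SD, n = 3), while AT1G09750 reached 836 ± 497 there (SD, n = 3).

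**Figure D1:**
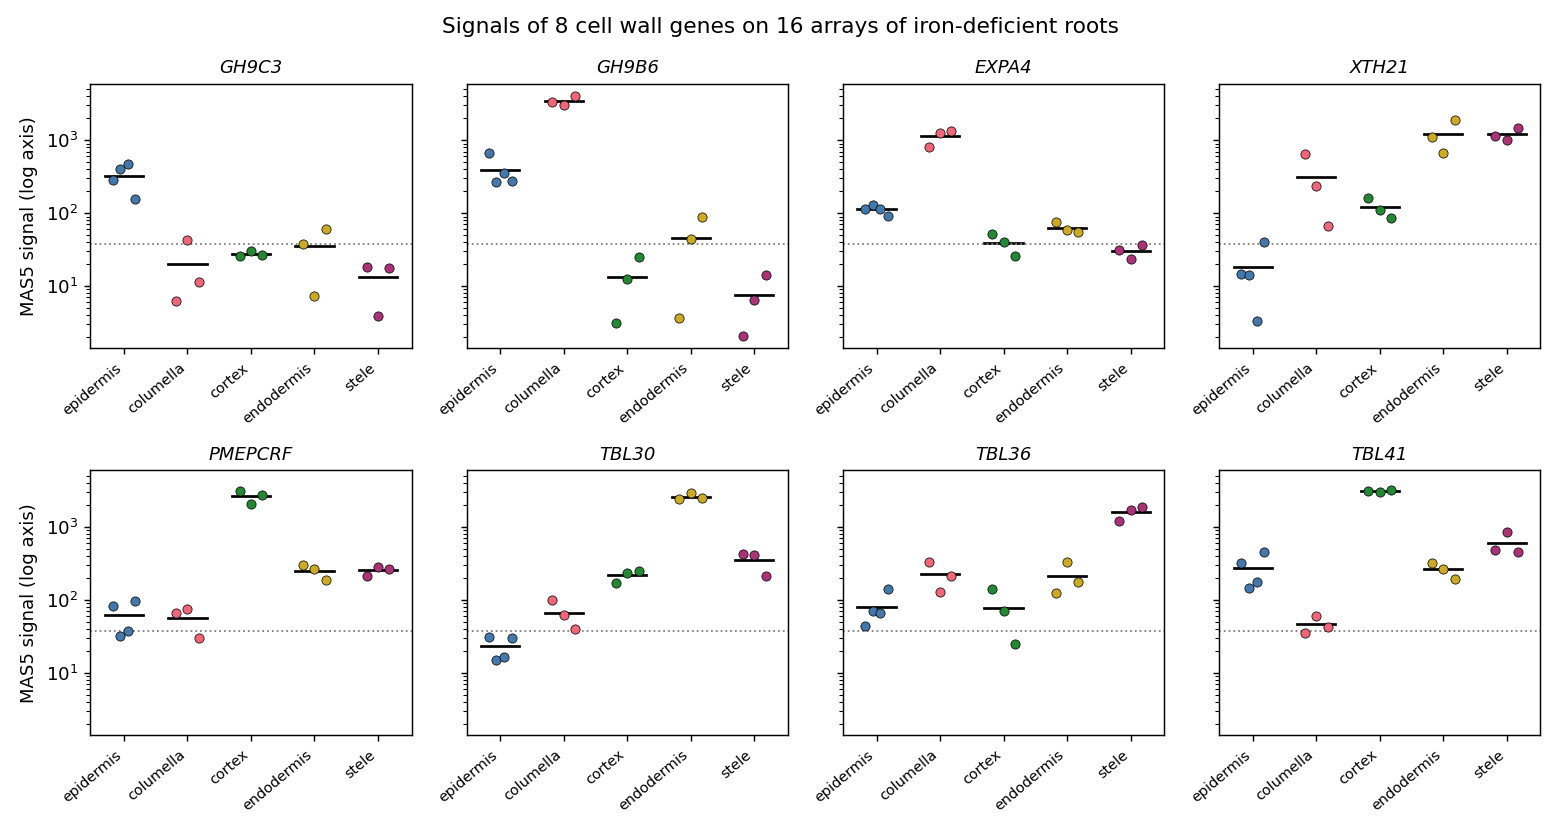
Signals of the 8 genes on each array, with 1 panel per gene, the population on the x axis and the MAS5 signal on a logarithmic y axis; points are arrays, bars mark population means, and the dotted line is the signal of 38.05 used as a filter. PMEPCRF and TBL41 peak in cortex, GH9B6 and EXPA4 in columella, GH9C3 in epidermis, TBL30 in endodermis and TBL36 in stele, while XTH21 is high in both endodermis and stele.

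The pairs of populations that do not count as used in choosing a gene were tested with limma on log2(signal + 10.2). The p-values were adjusted over all 16221 probe sets tested, with a threshold of 0.05. For TBL30 and TBL36 the used populations were set by the rule given above and not by a record. The tests covered 36 pairs over 7 genes, of which 19 passed, and none for XTH21. The same mix of pairs passed for 41.8% of all probe sets. The filter on low signals asks for 3 arrays at or above 38.05, and all 8 genes passed it, but GH9C3 passed only through epidermis, the population it was chosen on. Without its 6 pairs, 19 of 30 passed, and that mix of pairs passed for 42% of all 16221 probe sets. Probe sets that pass the filter only as GH9C3 does were left out of the 30 pairs but kept in the 42%. That share is therefore not a matched background for the 19 of 30. Among all probe sets, the share that passed was 45.7% between epidermis and columella, 47.8% between epidermis and cortex, 52.7% between epidermis and endodermis, and 33.3% between epidermis and stele. It was 49.5% between columella and cortex, 44.2% between columella and endodermis, and 43.1% between columella and stele. Between cortex and endodermis it was 44.3%, between cortex and stele 33.8%, and between endodermis and stele 30%. In sorted cells of mixed type, as in epidermis with lateral root cap, fewer cells of a type and less RNA per cell cannot be told apart.

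The glucanase GH9C3 (AT4G11050, probe set 254962_at), of the class that carries a cellulose-binding module, had its highest signals in epidermis. Its signals were 287, 398, 465 and 157 in epidermis replicates 1 to 4, a mean of 327 ± 135.01 (SD, n = 4). In endodermis they were 37.7, 7.42 and 61.0, and in cortex 25.7, 30.0 and 26.3. In columella they were 6.16, 42.3 and 11.3, and in stele 18.4, 3.94 and 17.7. Every epidermis array lay above every other array, and below it each population overlapped the next in order. Epidermis held 77.3% of the sum of the 5 population means and lay 3.00 (log2) above endodermis, the next population. That step ran from 2.30 to 3.43 over the alternatives, and endodermis was below the filter on 2 of 3 arrays. Replicate 4 gave the lowest of the epidermis signals, and the mean without it was 383 ± 90.2 (SD, n = 3). Outside epidermis only 1 columella and 1 endodermis array reached the filter. The 6 pairs among those populations (adjusted p = 0.25 to 0.93, none passing) therefore compare low signals and say little about GH9C3.

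GH9B6 (AT1G23210, 264896_at), a secreted glucanase of the same family, was highest in columella, the central root cap. Its signals there were 3303, 3013 and 4078 (3465 ± 551, SD, n = 3), which is 88.4% of the summed population means. The next population was epidermis with 665, 266, 351 and 273 (389 ± 188, SD, n = 4), 3.21 (log2) lower. All columella arrays lay above all epidermis arrays, and all epidermis arrays above the rest. Signals in endodermis were 3.68, 43.6 and 87.9, those in cortex 3.14, 12.5 and 24.8, and those in stele 2.05, 6.35 and 14.1.

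Epidermis, the second layer with GH9B6 signal, was not used to choose the gene, and 3 of 6 tested pairs passed, all with epidermis on top. GH9B6 was higher by 4.08 (log2, SE 0.51) in epidermis than in cortex (limma, adjusted p = 6.2e-06), by 3.15 than in endodermis (adjusted p = 5.5e-05) and by 4.45 than in stele (adjusted p = 1.7e-06). The size depends on the pseudocount, and the stele and cortex signals are far below the filter: epidermis minus stele was 5.55 with the 5th percentile added and 3.15 with the 40th. Endodermis replicate 1, at 3.68, decided the size against endodermis, which was 2.36 without it and 3.77 without endodermis replicate 3. Endodermis and stele differed by 1.30 (adjusted p = 0.079), and endodermis and cortex by 0.93 (adjusted p = 0.17). Both pairs passed without endodermis replicate 1, at 2.09 (adjusted p = 0.0029) and 1.73 (adjusted p = 0.0058), and the first passed also with array weights (adjusted p = 0.025) or a replicate block (adjusted p = 0.048).

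EXPA4 (AT2G39700, 267590_at), an alpha-expansin, followed GH9B6 in having its peak in columella. Its signals were 806, 1252 and 1343 there (1134 ± 287, SD, n = 3), 82.2% of the summed means. In epidermis they were 115, 129.8, 116 and 90.3 (113 ± 16.4, SD, n = 4). In endodermis they were 74.9, 58.1 and 55.3, in cortex 51.0, 40.7 and 26.2, and in stele 31.6, 23.2 and 36.7. Columella lay 3.20 (log2) above epidermis with no overlap. The remaining populations came in a shallow order, epidermis, endodermis, cortex and stele, in which only cortex and stele overlapped. No stele array and 2 of 3 cortex arrays reached the filter, so the low end of this order rests on faint signals.

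Tests of that shallow order called 4 of 6 pairs for EXPA4. Epidermis was higher than cortex by 1.33 (log2, SE 0.25, adjusted p = 3e-04), than stele by 1.60 (adjusted p = 5.3e-05) and than endodermis by 0.75 (adjusted p = 0.016). Endodermis was higher than stele by 0.85 (SE 0.26, adjusted p = 0.022), and its difference of 0.58 to cortex did not pass (adjusted p = 0.081). The step between epidermis and endodermis was lost without endodermis replicate 3 (0.68, adjusted p = 0.06). The step between endodermis and stele was lost without endodermis replicate 1 (0.73, adjusted p = 0.077), without stele replicate 2 (0.71, adjusted p = 0.083) and after quantile normalization (0.63, adjusted p = 0.057). Its size depends on the pseudocount, with 1.01 for the 5th percentile added and 0.56 for the 40th. The difference between endodermis and cortex passed without cortex replicate 1 (0.75, adjusted p = 0.04) and with array weights (0.65, adjusted p = 0.038).

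XTH21 (AT2G18800, 266066_at), which cuts and rejoins xyloglucan, was chosen for its low level in epidermis, and it was abundant in the inner layers. Its signals were 1149, 991 and 1465 in stele (1202 ± 241, SD, n = 3) and 1099.9, 665 and 1896 in endodermis (1221 ± 624, SD, n = 3). Columella gave 646, 233 and 67.3, and cortex 164, 112 and 84.9. Epidermis gave 14.8, 14.4, 3.29 and 40.6 (18.3 ± 15.8, SD, n = 4), which is 0.636% of the summed means. Stele and endodermis overlapped, columella and cortex overlapped below them, and every epidermis array lay below every other array. Stele had the highest mean log2 level, 0.09 above endodermis, but endodermis had the higher mean signal, and stele minus endodermis was -0.28 (log2) without endodermis replicate 2 and -0.065 without stele replicate 3. The step between cortex and epidermis was 2.31 (log2), and it ran from 1.498 to 2.94 over the alternatives, with 3 of 4 epidermis arrays below the filter.

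No pair of populations was tested for XTH21, since the slope took in every population but columella. As a description, endodermis lay 2.28 (log2) and stele 2.37 above columella, with no overlap. Columella lay 0.87 above cortex, and its arrays ran from 67.3 to 646.

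PMEPCRF (AT5G53370, 248263_at), a pectin methylesterase, was highest in cortex. Its signals were 3097, 2063 and 2758 there (2639 ± 527, SD, n = 3), 80.9% of the summed means. Stele gave 212, 282 and 267 (254 ± 36.5, SD, n = 3) and endodermis 297, 265 and 189.7 (251 ± 54.9, SD, n = 3). Epidermis gave 82.4, 32.1, 37.1 and 96.1, and columella 66.7, 75.8 and 29.7. The values fell into 3 levels without overlap, with cortex on top by 3.32 (log2), stele and endodermis in the middle, and epidermis and columella at the bottom.

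The gap between the middle and the bottom level of PMEPCRF passed in all 4 pairs that cross it, of 6 tested. Only 2 of 4 epidermis and 2 of 3 columella arrays reached the filter, so the bottom level rests on low signals. Endodermis was higher than epidermis by 1.95 (log2, SE 0.33, adjusted p = 1e-04) and than columella by 2.00 (adjusted p = 2e-04). Stele was higher than epidermis by 1.98 (adjusted p = 0.00013) and than columella by 2.03 (adjusted p = 0.00018). Within each level the difference was small, 0.03 for stele minus endodermis (adjusted p = 0.96) and 0.05 for epidermis minus columella (adjusted p = 0.91), and both changed sign with single arrays left out.

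TBL30 (AT2G40160, 263387_at), of a branch of the acetyltransferases that acts on xylan, was highest in endodermis. Its signals were 2390.1, 2921 and 2473 there (2595 ± 286, SD, n = 3), 79.8% of the summed means. Stele gave 429, 410.4 and 210.2 (350.0 ± 121, SD, n = 3), and cortex 170.3, 232 and 249 (217 ± 41.4, SD, n = 3). Columella gave 98.3, 61.6 and 39.4, and epidermis 31.4, 15.1, 16.4 and 30.3. The signal thus stepped down from endodermis to both of its neighbours, stele and cortex, which overlapped, and no epidermis array reached the filter. Endodermis lay 2.91 (log2) above stele. Of the 3 pairs tested, stele was higher than columella by 2.24 (adjusted p = 2.4e-05) and cortex higher than columella by 1.62 (SE 0.32, adjusted p = 4e-04). Stele minus cortex was 0.62 (adjusted p = 0.15), and it passed without stele replicate 3 (0.94, adjusted p = 0.045).

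TBL36 (AT3G54260, 251886_at) belongs to the same family of acetyltransferases and was highest in stele. Its signals were 1208, 1711 and 1880.0 there (1599.7 ± 349, SD, n = 3), 72.9% of the summed means. Columella gave 330.1, 130.2 and 213 (224 ± 100.5, SD, n = 3) and endodermis 123, 335 and 178 (212 ± 109.8, SD, n = 3). Epidermis gave 44.2, 69.8, 65.5 and 139, and cortex 141, 69.8 and 24.6. All stele arrays lay above all others, by 2.85 (log2) on average over columella. The arrays of neighbouring populations below stele overlapped throughout.

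For TBL36, 4 of 6 tested pairs passed, each with overlapping arrays. Columella was higher than epidermis by 1.39 (log2, SE 0.45, adjusted p = 0.018) and than cortex by 1.55 (adjusted p = 0.013). Endodermis was higher than epidermis by 1.30 (adjusted p = 0.023) and than cortex by 1.45 (adjusted p = 0.021). Single arrays decide each call, and cortex replicate 3, at 24.6, lay below the filter. Columella over epidermis was lost without columella replicate 1 (1.08, adjusted p = 0.099) or epidermis replicate 1 (1.19, adjusted p = 0.058), and columella over cortex without columella replicate 1 (1.24, adjusted p = 0.068) or cortex replicate 3 (1.00, adjusted p = 0.097). Endodermis over epidermis was lost without endodermis replicate 2 (0.92, adjusted p = 0.14) or epidermis replicate 1 (1.09, adjusted p = 0.072), and endodermis over cortex without endodermis replicate 2 (1.08, adjusted p = 0.11) or cortex replicate 3 (0.90, adjusted p = 0.15).

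TBL41 (AT3G14850, 256600_at), the third acetyltransferase relative, shared the cortex with PMEPCRF. Its signals were 3087, 3037 and 3214 there (3113 ± 91.0, SD, n = 3), 72.5% of the summed means. Stele gave 479, 864 and 450.0 (598 ± 231, SD, n = 3), and endodermis 325, 265 and 195 (261 ± 64.8, SD, n = 3). Epidermis gave 319.9, 148, 177 and 459 (276 ± 143, SD, n = 4), and columella 35.7, 61.0 and 42.4 (46.4 ± 13.1, SD, n = 3). The cortex lay 2.42 (log2) above stele with the smallest SD among the highest populations of the 8 genes, and columella lay 2.23 below epidermis, both without overlap. Stele was higher than epidermis by 1.16 (log2, SE 0.33, adjusted p = 0.011) and than endodermis by 1.13 (adjusted p = 0.022), which are 2 of the 3 pairs tested. The third, endodermis minus epidermis, was 0.03 (adjusted p = 0.94). Stele replicate 2 carried both calls: without it they were 0.87 (adjusted p = 0.08) and 0.83 (adjusted p = 0.11). The call against endodermis was lost also without endodermis replicate 3 (0.94, adjusted p = 0.097).

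**Figure D2:**
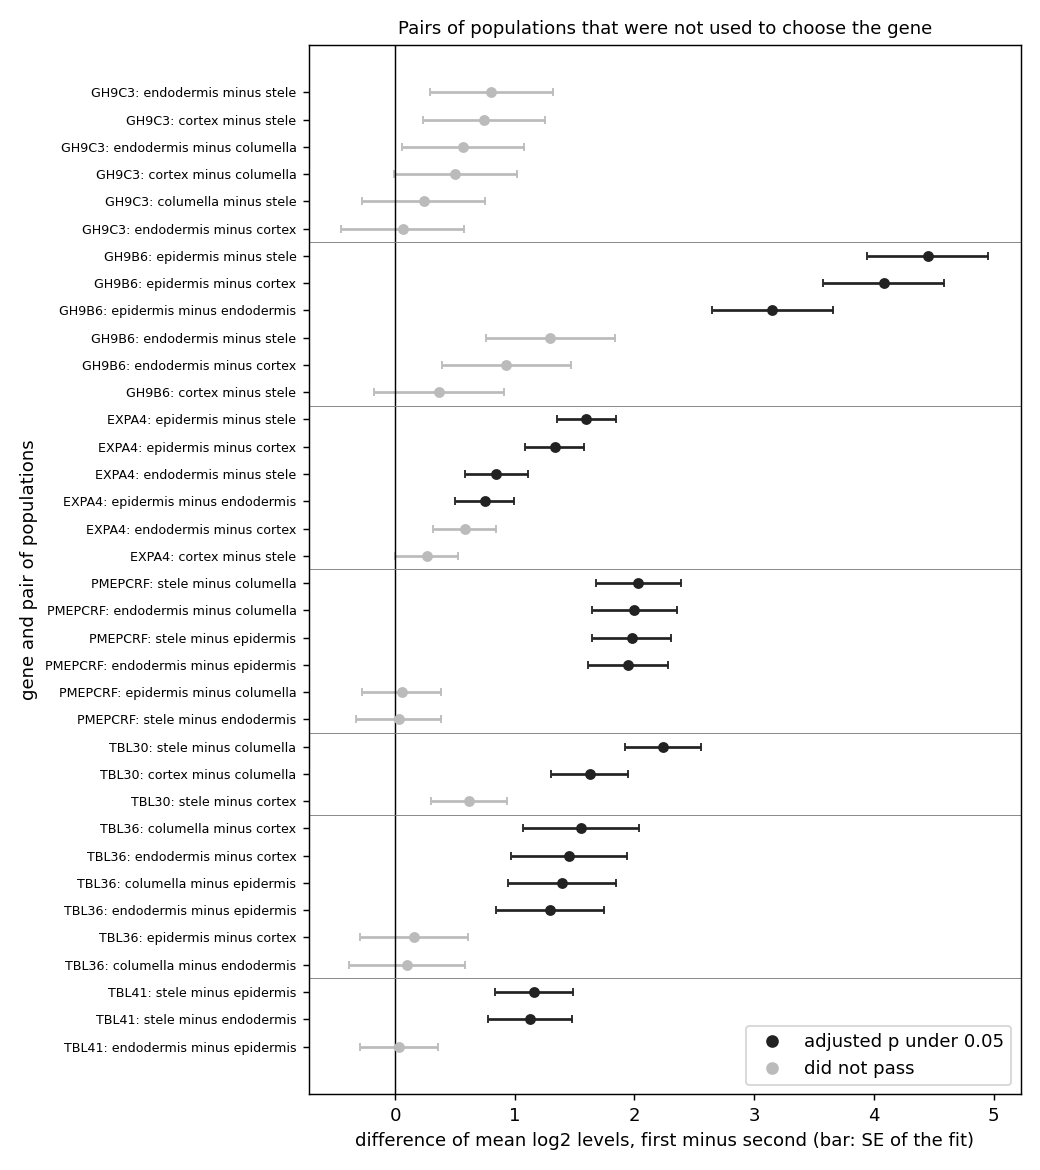
Differences of mean log2 level for the 36 tested pairs, with the gene and pair on the y axis and the first population minus the second on the x axis; points are fitted differences, bars their SE, and dark points passed at an adjusted p under 0.05. The 3 GH9B6 differences between epidermis and the inner layers, 3.15 to 4.45, lie farthest out, and none of the 6 GH9C3 pairs passed.

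Epidermis replicate 4, the array that stood apart, lay nearer to the cortex mean than the other epidermis arrays did for GH9C3, EXPA4, XTH21, PMEPCRF and TBL41, which are 5 of the 8 genes. The same held for 53.6% of all probe sets tested. XTH21 had its highest epidermis signal on that array (40.6, against 3.29 to 14.8 on replicates 1 to 3), and so did TBL41 (459, against 148 to 319.9). Its part in these results was not tested beyond leaving it out, which left 19 of 36 pairs called.

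The correlations between the 8 genes over the 16 arrays carry no test, since the genes were chosen on these arrays and arrays of a population share its level. GH9B6 and EXPA4, both highest in columella, correlated at 0.911 in log2 signal over the 16 arrays. PMEPCRF and TBL41, both highest in cortex, correlated at 0.896. XTH21 correlated at 0.807 with TBL30 and at 0.713 with TBL36. The sign was negative between the columella and cortex genes, which were chosen for these different populations. TBL41 correlated at -0.804 with EXPA4 and at -0.795 with GH9B6, and PMEPCRF at -0.624 and -0.726. Within the TBL family the 3 genes had little in common, with 0.324 for TBL30 and TBL36, 0.241 for TBL30 and TBL41, and -0.115 for TBL36 and TBL41.

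Among 1230 other genes with a symbol, those with the highest correlation over the 16 arrays were listed for each gene, 3 apiece. For GH9C3 they were ALDH3F1 (0.917), ATMYC1 (0.878) and scpl18 (0.877). For GH9B6 they were CR4 (0.957), WRKY22 (0.955) and PPDK (0.950), and for EXPA4 they were APL4 (0.975), PWD (0.963) and JRG21 (0.954). XTH21 was closest to RALFL32 (0.968), LCR68 (0.957) and LCR69 (0.956). PMEPCRF and TBL41 shared tny, at 0.970 and 0.952. The other genes nearest to PMEPCRF were NdhS (0.974) and DLAH (0.965), and those nearest to TBL41 were GR1 (0.948) and ATHM2 (0.946). TBL30 had B120 (0.987), CCR2 (0.982) and Prx37 (0.974), and TBL36 had scpl35 (0.921), SBTI1.1 (0.896) and IAA31 (0.883).

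TBL28 lies next to TBL30 in the annotated gene order and belongs to the same xylan branch, yet its signals had another maximum. TBL28 averaged 176 ± 23.1 in cortex, 109.7 ± 5.06 in stele, 96.2 ± 13.3 in endodermis and 57.4 ± 22.2 in columella (SD, n = 3 each), and 51.6 ± 4.62 in epidermis (SD, n = 4). TBL28 and TBL30 correlated at 0.554 over the 16 arrays. The neighbour AT1G23220 of GH9B6 was also highest in columella (433 ± 72.2, SD, n = 3) and correlated with it at 0.818. On its other side, AT1G23205 correlated with GH9B6 at -0.584. The other neighbours with a probe set correlated at -0.743 (AT3G14860 with TBL41), -0.470 (AT2G39690 with EXPA4), 0.024 (AT5G53360 with PMEPCRF), and -0.045 and -0.406 (AT3G54250 and AT3G54270 with TBL36), so the signs were mixed.

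The other wall genes show how the 8 compare with those genes of their families that the annotation tied to a probe set. The annotation named no gene for 8794 of 22810 probe sets, so a gene missing here may still be on the array. With the 8 included, 19 of 31 listed expansins, 10 of 33 XTH and 15 of 25 family 9 glucanase genes had a probe set of their own. So did 13 of 26 listed pectin methylesterase and 24 of 46 TBL genes. Shares by family below describe those genes only. A list of 83 further genes had a probe set of their own, and 64 of them passed the filter. The list also holds polygalacturonases and genes of cellulose, xyloglucan and xylan synthesis, families to which none of the 8 belongs. Each population was set against the mean of the other 4 in the same limma fit. At least 1 population was called for 58 of the 64 (90.6%), against 86.5% of all probe sets, and none for 6. In stele 22 of 64 (34.4%) were higher, against 15.9% of all probe sets, and 7 (10.9%) lower, against 11.2%. In columella 12 were higher (18.8%, against 22.8% of all probe sets) and 27 lower (42.2%, against 24.4%). In epidermis 17 were higher (26.6%, against 25.9%) and 26 lower (40.6%, against 25.9%). In cortex 17 were higher (26.6%, against 18.6%) and 12 lower (18.8%, against 28.2%). In endodermis 18 were higher (28.1%, against 23.2%) and 15 lower (23.4%, against 19.9%). The median difference of the 64 genes was 0.37 (log2) in stele, against 0.05 for all probe sets, and -0.37 in columella, against -0.03. It was -0.09 in epidermis, against 0.03, 0.10 in cortex, against -0.17, and 0.13 in endodermis, against 0.05. Counted by the highest mean log2 level, with no test, 12 of the 64 genes peaked in epidermis, where 23.3% of all probe sets did, and 9 in columella (24.1% of all probe sets). There were 12 with their peak in cortex (16.2%), 17 in endodermis (22.4%) and 14 in stele (13.9%). Quantile normalization moved the median of all probe sets to -0.06 in both cortex and endodermis. Without epidermis replicate 4 the numbers higher and lower were 15 and 27 for epidermis, 13 and 27 for columella, 19 and 12 for cortex, 21 and 16 for endodermis, and 24 and 8 for stele. The number higher in epidermis was 10 without epidermis replicate 1, and the number lower in cortex was 6 without cortex replicate 3.

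**Figure D3:**
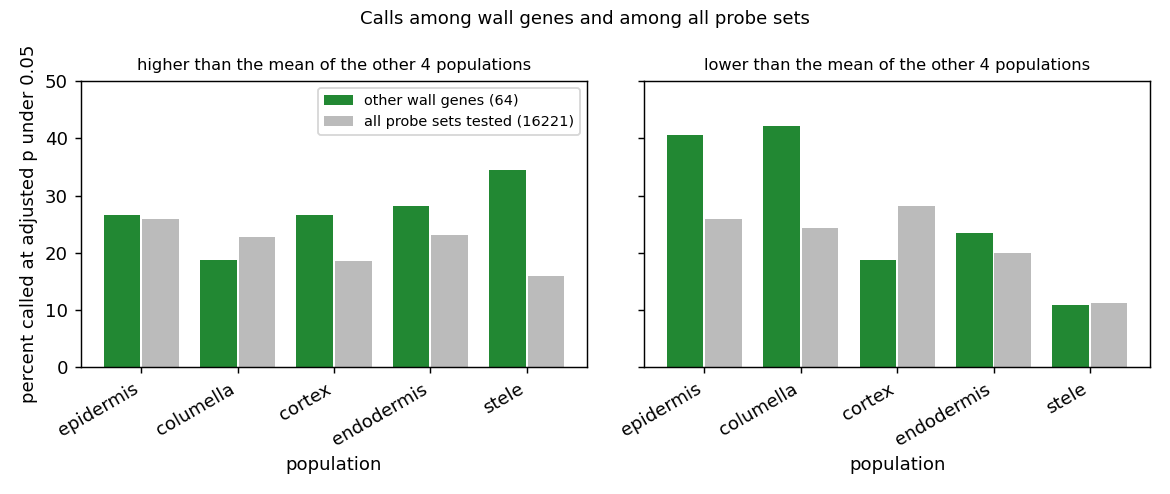
Percent of the 64 other wall genes (green) and of all 16221 probe sets tested (grey) that were higher (left) or lower (right) in each population than the mean of the other 4, at an adjusted p under 0.05. Wall genes were higher in stele at 34.4%, against 15.9% of all probe sets, and lower in columella at 42.2%, against 24.4%.

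By family the numbers are small, and each count is set beside the share of all probe sets called the same way. Of the 18 TBL genes tested, 2 (11.1%) were higher and 8 (44.4%) lower in epidermis, against 25.9% each way. In columella 4 (22.2%) were higher and 8 (44.4%) lower, against 22.8% and 24.4%. In cortex 6 (33.3%) were higher and 1 (5.56%) lower, against 18.6% and 28.2%. In endodermis 6 (33.3%) were higher and 3 (16.7%) lower, against 23.2% and 19.9%, and in stele 5 (27.8%) higher and 4 (22.2%) lower, against 15.9% and 11.2%. Their maxima were spread, with 6 in endodermis and 3 in each of the other populations. AT2G31110, also named TBL40, had a mean signal of 1263 ± 233 in stele (SD, n = 3), against 182 as the mean of the other 4 populations, a difference of 3.12 (log2, adjusted p = 5.9e-07). The same gene was at 29.5 ± 26.8 in epidermis (SD, n = 4), against 490.4 elsewhere (-3.37, adjusted p = 2e-08). TBL34, of the xylan branch, had 609 ± 301 in stele (SD, n = 3), against 108 elsewhere (2.67, adjusted p = 1.4e-05).

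Of 9 pectin methylesterases tested, 6 (66.7%) were higher and 1 (11.1%) lower in stele, against 15.9% and 11.2% of all probe sets. In endodermis 5 (55.6%) were higher and 2 (22.2%) lower, against 23.2% and 19.9%. In cortex 2 (22.2%) were higher and 3 (33.3%) lower, against 18.6% and 28.2%. In epidermis 2 (22.2%) were higher and 5 (55.6%) lower, against 25.9% each way, and in columella 0 were higher and 3 (33.3%) lower, against 22.8% and 24.4%. ATPMEPCRD had its maximum in cortex as PMEPCRF did, at 1081 ± 289 (SD, n = 3), against 173 elsewhere (3.12, adjusted p = 3e-06). AT5G19730 had 1242 ± 456 in endodermis (SD, n = 3), against 283 elsewhere (2.96, adjusted p = 5.6e-05). It was lowest in epidermis, at 20.9 ± 26.9 (SD, n = 4) against 588 elsewhere (-4.05, adjusted p = 3.6e-07). AT3G10720 had 1983 ± 441 in epidermis (SD, n = 4), against 480.3 elsewhere (2.40, adjusted p = 1.4e-05). AT1G65570, the polygalacturonase of the root cap, which cuts demethylated pectin, was higher in columella by 4.88 (adjusted p = 4.3e-07). This gene is also the root cap marker named above, so its columella level is not a separate result. It was higher in epidermis too, at 2012 ± 1232 (SD, n = 4), by 2.26 (adjusted p = 0.00048), and lower in cortex (-2.62, adjusted p = 0.00043) and stele (-3.68, adjusted p = 2.7e-05).

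Of 13 expansins tested, 6 (46.2%) were higher and 5 (38.5%) lower in epidermis, against 25.9% of all probe sets each way. In columella 3 (23.1%) were higher and 6 (46.2%) lower, against 22.8% and 24.4%. Cortex had 1 higher (7.69%, against 18.6%) and 3 lower (23.1%, against 28.2%). In endodermis 3 (23.1%) were higher and 4 (30.8%) lower, against 23.2% and 19.9%, and in stele 4 (30.8%) higher and 1 (7.69%) lower, against 15.9% and 11.2%. EXPA9 had its maximum in columella as EXPA4 did, at 1587 ± 534 (SD, n = 3), against 381 elsewhere (2.79, adjusted p = 3.1e-07). EXPA9 was lower in endodermis (62.5 ± 17.3, SD, n = 3, against 762 elsewhere, -2.75, adjusted p = 8.4e-07) and in stele (107 ± 54.7, SD, n = 3, against 751 elsewhere, -1.98, adjusted p = 3.9e-05). EXPA15 was lower in cortex, at 80.8 ± 17.0 (SD, n = 3) against 473 elsewhere (-1.98, adjusted p = 7.2e-07). The expansin-like gene EXLA2 was lower in endodermis, at 21.5 ± 18.3 (SD, n = 3) against 219 elsewhere (-2.56, adjusted p = 0.00029).

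Of 9 family 9 glucanases tested, 4 (44.4%) were higher and 1 (11.1%) lower in cortex, against 18.6% and 28.2% of all probe sets. In each of columella and endodermis 2 (22.2%) were higher, close to the 22.8% and 23.2% of all probe sets, and 4 (44.4%) lower, against 24.4% and 19.9%. In epidermis 2 (22.2%) were higher and 2 lower, near the 25.9% of all probe sets, and in stele 2 were higher (15.9% of all probe sets) and 0 lower (11.2%). GH9B17 was lower in columella, where GH9B6 peaks, at 6.01 ± 2.11 (SD, n = 3) against 75.0 elsewhere (-2.29, adjusted p = 1.6e-05). Its columella signals, 4.42 to 8.41, lay below the pseudocount of 10.2, so the size of this difference depends on that setting. Of 7 XTH genes, 2 (28.6%) were higher and 5 (71.4%) lower in epidermis, against 25.9% of all probe sets each way, and 1 (14.3%) higher and 4 (57.1%) lower in columella, against 22.8% and 24.4%. Both cortex (18.6% and 28.2% of all probe sets) and stele (15.9% and 11.2%) had 3 (42.9%) higher and 0 lower. In endodermis 2 (28.6%) were higher and 1 (14.3%) lower, against 23.2% and 19.9%. XTH16 had 846 ± 177 in endodermis (SD, n = 3), against 129 elsewhere (3.38, adjusted p = 1.8e-05). XTH33 had 186 ± 28.1 in cortex (SD, n = 3), against 46.8 elsewhere (2.04, adjusted p = 9.2e-05). XTH18 was lower in columella, at 100.0 ± 31.8 (SD, n = 3) against 634 elsewhere (-2.47, adjusted p = 1.2e-06).

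Genes that build the polymers these enzymes act on were few among the named probe sets. COB, which orients cellulose deposition, was higher in cortex (2103 ± 174, SD, n = 3, 1.52, adjusted p = 1.2e-05) and in epidermis (0.59, adjusted p = 0.0096), and lower in columella (-1.59, adjusted p = 3.7e-06) and endodermis (-0.65, adjusted p = 0.013). GUT2, a xylan synthesis gene, was higher in columella (489.5 ± 193, SD, n = 3, 1.75, adjusted p = 9.4e-06) and lower in epidermis (-1.14, adjusted p = 0.00026) and cortex (-0.79, adjusted p = 0.011). Of 5 genes for xyloglucan synthesis, CSLC5 (1.04, adjusted p = 0.0027) and ATCSLC08 (0.74, adjusted p = 0.031) were higher in stele. Both were lower in cortex, CSLC5 at -0.62 (adjusted p = 0.036) and ATCSLC08 at -0.63 (adjusted p = 0.042). CSLC6 was higher in epidermis (0.82, adjusted p = 0.0063) and CSLC04 lower in columella (-1.48, adjusted p = 0.00024).

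**Figure D4:**
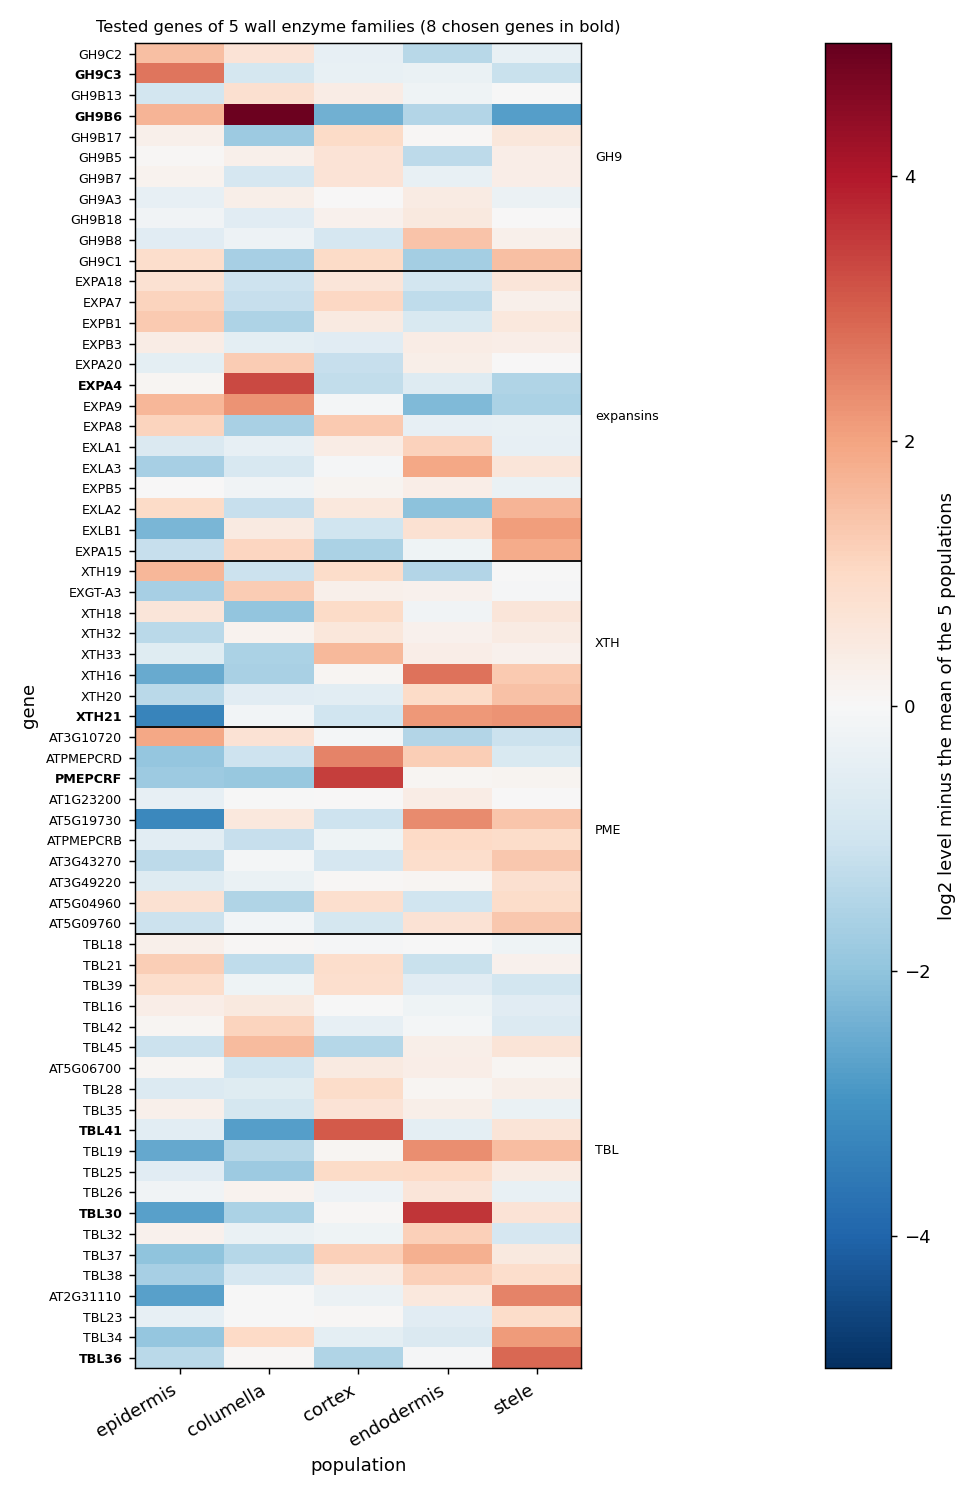
Mean log2 level of the tested TBL, expansin, XTH, GH9 and pectin methylesterase genes in each population minus the gene's mean over the 5 populations. Genes are grouped by family on the y axis, with populations on the x axis and the 8 genes of the report in bold. The maxima of each of these families lie in 4 or 5 layers.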

How the data were processed

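RNA of sorted cells was hybridised to Affymetrix arrays, 1 per sample. The deposited values are intensity, made by the authors with MAS5 (version not given), per the submitters' processing notes. Probe sets numbered 22810, of which 64 are controls, and the annotation named 1 gene for 13513, several for 503 and none for 8794.

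Pseudocount (10.2) and filter (3 arrays at or above 38.05) were the 20th and 40th percentiles. limma 3.58.1 in R 4.3.3 fitted 1 mean per population to log2 values of all 16 arrays (lmFit, contrasts.fit, eBayes with trend, 11 residual degrees of freedom). Tests were two-sided, with Benjamini-Hochberg adjustment over 16221 probe sets per contrast. Fold changes on this scale understate low signals. The fit was tested on simulated data.

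The 8 genes and all gene lists were chosen with earlier results of these data known. Wall families came from general knowledge and symbols. Of the genes described by name, AT3G10720, AT5G19730 and AT1G65570 have their family from general knowledge only. Other pectin methylesterases in the counts, such as AT3G43270 and AT5G09760, also have a locus tag as symbol and were on a list of loci from general knowledge. Named genes are the 8, at most 2 called genes each way per population with the largest differences, families with 5 or fewer called members in full, and the 3 most correlated genes of each. Where several probe sets match a gene, the brightest is used. The design held 42 pairs. The 6 of XTH21 were not tested, because earlier results listed its slope over epidermis, cortex, endodermis and stele among the 5 steepest. Alternatives were quantile normalization, other pseudocounts and filters, no trend, array weights, a replicate block, probe set means and each array left out. Same-numbered replicates deviated with correlations of -0.26 to 0.24, so no pairing by number was seen. With so few arrays per population, these correlations cannot exclude that replicates shared a culture or a batch. Arrays limit precision by their number. Figures used Python 3.11.15 and matplotlib 3.10.9.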

Additional observations from a re-analysis of the deposited data

Results flagged for a closer look

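CSLC5, a gene for xyloglucan synthesis, had 1 epidermis array far from the other 3. Epidermis replicate 4 read 155, against 259 to 274 on replicates 1 to 3. It was the only such case among 27 groups of 4 epidermis signals examined, and chance gives about 1 in 20. Replicate 4 is also the epidermis array that correlated least with its own population.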

How the results depend on the processing

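Of 36 tested pairs, 19 passed, and 18 to 21 did so under the alternatives, with 16 to 20 when single arrays were left out. With the replicate block 20 passed, and it changed the call of GH9B6 in endodermis minus stele only (1.30, adjusted p = 0.048). Pairing by number was not seen, though it is not excluded, and 4 of 16 arrays correlated best with their own number. Every pair that changed sign was one that had not passed. GH9C3 in columella minus stele was -0.052 with array weights and -0.26 to 0.58 with single arrays left out. In cortex minus endodermis GH9C3 was 0.31 after quantile normalization, 0.038 with the 5th percentile as pseudocount, and -0.64 to 0.37 with arrays left out. PMEPCRF in endodermis minus stele was 0.079 after quantile normalization and -0.16 to 0.15 with arrays left out. PMEPCRF in epidermis minus columella was -0.24 with array weights, -0.17 with the replicate block, and -0.29 to 0.27. TBL36 in epidermis minus cortex was -0.12 with the replicate block and -0.39 to 0.67. Only leaving out arrays changed the sign of TBL36 in columella minus endodermis (-0.22 to 0.47) and TBL41 in epidermis minus endodermis (-0.32 to 0.21). The drop of TBL30 between columella and epidermis was 0.74 with the 40th percentile as pseudocount, against 1.16. With arrays left out, wall genes lower in cortex numbered 6 to 14 (main value 12) and wall genes higher in epidermis 10 to 19 (main value 17). All 8 genes kept their population of highest mean log2 level under every alternative, except XTH21 without endodermis replicate 2 or stele replicate 3. For every gene but XTH21 that population counts as used in choosing the gene, so this is a description and no test. The cause of the changes under the alternatives was not tested. No detection calls were used, so signals below the filter have no order. All 8 genes had such signals: besides GH9C3, GH9B6, EXPA4 and XTH21, these were PMEPCRF in epidermis and columella, TBL30 in epidermis, TBL36 in cortex and TBL41 in columella. Some differences of other wall genes rest on mean signals below the filter, as for AT5G19730 and AT2G31110 in epidermis and EXLA2 in endodermis. Their sizes depend on the pseudocount.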
